A study of Mus musculus with 37 samples.

Results

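Gata6, Tcf21, Foxf1, Tbx5, Tbx15, Prrx1 and Twist1, 7 transcription factors outside the Hox clusters that pattern organs or mesenchyme in the embryo, were followed in cultured mouse fibroblasts from 3 organs. They were chosen by name among the 14028 genes of the fibroblast count table, and all 7 were present and passed the filter on low counts. RNA was measured by 3′-end mRNA sequencing in 21 fibroblast libraries from BALB/c mice aged 8 weeks. The groups were mesometrial fat fibroblasts co-cultured with macrophages (n = 3) or grown alone (mono-culture, n = 2), lung fibroblasts co-cultured (n = 3) or alone (n = 3), and mammary fat pad fibroblasts co-cultured (n = 5) or alone (n = 5). Co-cultures and mono-cultures ran for 7 days in DMEM on collagen I, and the partner cells were macrophages differentiated from bone marrow with L929-conditioned medium. Fibroblasts of all groups were depleted of EpCAM-positive and CD45-positive cells and expanded before culture, and live cells negative for F4/80 and CD11b, both macrophage surface proteins, were sorted for sequencing. Per the labels' protocols, a biological replicate of fat or mammary fibroblasts came from 2 females.

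Fibroblasts of different organs descend from different parts of the embryonic mesoderm and neural crest, and they keep part of the transcription factor code of their position in adult tissue and in culture. GATA6 is a zinc-finger factor of heart, gut and lung development that binds GATA sequences. TCF21 is a basic helix-loop-helix (bHLH) factor of lung, kidney and epicardial mesenchyme and also marks visceral fat stroma. FOXF1 is a forkhead factor that acts downstream of hedgehog signals in lung and gut mesenchyme. TBX5 is a T-box factor of the heart, the forelimb and the lung bud, and TBX15 is a T-box factor of skeletal development and of fat depots. PRRX1, a homeodomain protein, and TWIST1, a bHLH protein, mark limb and craniofacial mesenchyme and are broadly used in fibroblasts.

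The libraries held 3304605 to 7487355 counts, at which 3 counts correspond to 0.390 to 0.962 CPM (the count relative to the library total, after TMM correction of the totals). The mean log2(CPM + 0.5) of 10 fibroblast markers lay between 8.69 and 10.0 in all libraries. Markers of mesothelium, the epithelium-like lining of body cavities and organs, differed between organs. Of 9 mesothelial markers 8 were in the table, and their mean log2(CPM + 0.5) was 6.63 to 7.74 in fat libraries and 7.00 to 8.07 in lung libraries, against 0.09 to 2.65 in mammary libraries. All 8 had counts in every fat and lung library, whereas up to 6 of them were at 0 in a mammary library. The library titled lung mono-culture 3 carries mammary fat pad as its tissue label. Over genes other than the 7 it correlated at r = 0.975 with the other lung mono-cultures and at r = 0.829 with the mammary mono-cultures. It was kept with the lung group, and genes named below that lose a printed call without it are given with their values. For lung, the labels give no more than a repetition number, and for no organ do they say whether a co-culture and a mono-culture came from the same animals. The spread behind each p may thus be partly technical.

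Both promoters shown here belong to genes on which the results below turn and were taken from RefSeq (build GRCm38.p6), from 250 bases before to 50 bases after the gene start, 5′ to 3′ on the gene's strand. The first belongs to Tcf21, which was high where Gata6 was high, at chr10:22820094-22820393 on the minus strand, with a GATA motif (AGATAA) in capitals. The second belongs to Fendrr, the long non-coding RNA that starts 1276 bases from Foxf1 on the opposite strand and that followed Foxf1 most closely, at chr8:121083061-121083360 on the minus strand, with a forkhead motif (TGTTTAC, present here as its reverse complement GTAAACA) in capitals.
Tcf21: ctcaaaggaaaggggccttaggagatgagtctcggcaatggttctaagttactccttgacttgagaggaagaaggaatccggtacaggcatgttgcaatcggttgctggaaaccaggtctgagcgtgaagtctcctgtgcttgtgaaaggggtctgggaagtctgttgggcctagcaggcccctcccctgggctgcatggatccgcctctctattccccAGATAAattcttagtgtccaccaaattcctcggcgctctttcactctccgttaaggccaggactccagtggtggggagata
Fendrr: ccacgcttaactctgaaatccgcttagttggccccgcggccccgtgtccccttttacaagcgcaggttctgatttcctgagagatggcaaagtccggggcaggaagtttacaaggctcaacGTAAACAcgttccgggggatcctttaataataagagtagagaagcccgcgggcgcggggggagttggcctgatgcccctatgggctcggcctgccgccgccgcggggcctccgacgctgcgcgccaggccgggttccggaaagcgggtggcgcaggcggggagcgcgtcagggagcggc
AGATAA or its reverse complement TTATCT occurred in 11.2% of 32851 promoters of this length, and TGTTTAC or GTAAACA in 3.65%. The motifs were searched on both strands after the sequences had been seen, so a match describes letters only. RefSeq promoters of 3 of the 7 genes (Tcf21, Prrx1 and Twist1) were in the table used.

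Gata6, Tcf21, Foxf1, Tbx5 and Tbx15 were called in at least 1 comparison between organs in each culture type, and Prrx1 and Twist1 in mono-culture but in no co-culture comparison. In mono-culture, 5 of 7 differed between fat and lung fibroblasts, where 9.28% of all 12421 genes tested were called at an adjusted p under 0.05 (edgeR's quasi-likelihood test, Benjamini-Hochberg adjustment). Between fat and mammary mono-cultures 5 of 7 were called against a background of 23.3%, and between lung and mammary mono-cultures 6 of 7 against 40.3%. In co-culture, 3 of 7 were called between fat and lung (background 9.41%), 4 of 7 between fat and mammary (25.4%) and 5 of 7 between lung and mammary (32.2%). By direction, fat mono-cultures were higher than lung mono-cultures in Prrx1 (1 of 7, background 5.48%) and lower in Gata6, Foxf1, Tbx5 and Tbx15 (4 of 7, background 3.8%). Fat mono-cultures were higher than mammary mono-cultures in Gata6 and Tcf21 (2 of 7, background 14.1%) and lower in Tbx5, Tbx15 and Twist1 (3 of 7, background 9.2%). Lung mono-cultures were higher than mammary mono-cultures in Gata6, Tcf21 and Foxf1 (3 of 7, background 21.2%) and lower in Tbx15, Prrx1 and Twist1 (3 of 7, background 19.1%).

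Every difference called in co-culture had the same sign in mono-culture. Fat co-cultures were higher than lung co-cultures in 0 of 7 (background 4.26%) and lower in Foxf1, Tbx5 and Tbx15 (3 of 7, background 5.15%). Fat co-cultures were higher than mammary co-cultures in Gata6 and Tcf21 (2 of 7, background 13.3%) and lower in Tbx5 and Tbx15 (2 of 7, background 12%). Lung co-cultures were higher than mammary co-cultures in Gata6, Tcf21, Foxf1 and Tbx5 (4 of 7, background 16.9%) and lower in Tbx15 (1 of 7, background 15.3%). The 7 were listed by name with earlier results of these data known, so the counts describe these genes and no more. In bulk RNA, fewer cells that express a gene and less of its RNA per cell cannot be told apart.

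**Figure D1:**
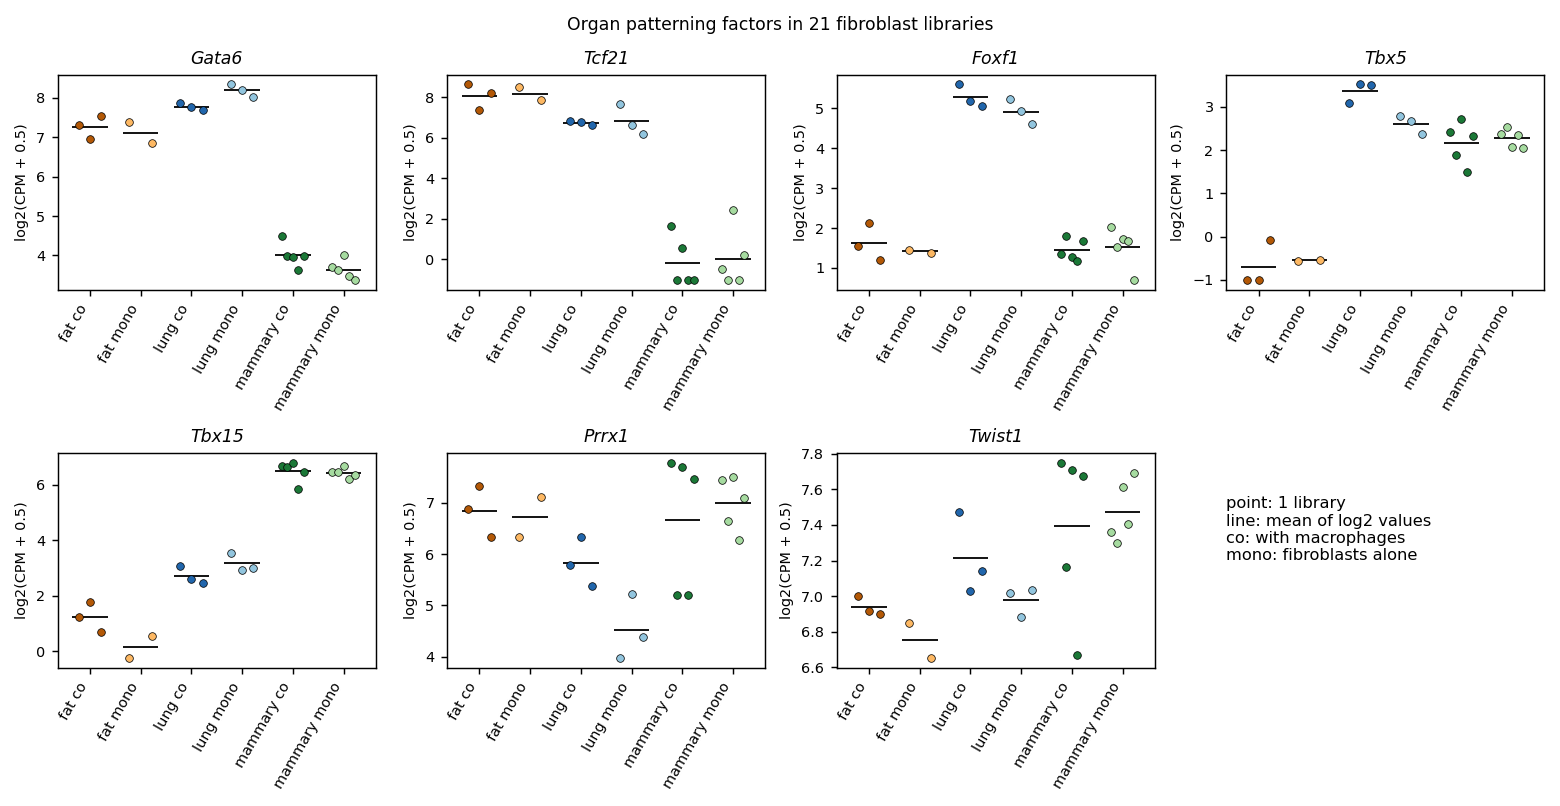
Level of each factor in the 21 fibroblast libraries, as log2(CPM + 0.5) on the vertical axis, by organ and culture (co, with macrophages; mono, alone). Each point is a library and each line the mean of the log2 values. Gata6 and Tcf21 were lowest in the mammary groups, Foxf1 was highest in the lung groups, Tbx5 was lowest in fat and Tbx15 was highest in mammary.

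Foxf1, a factor of lung mesenchyme, was highest in lung fibroblasts. It stood at 2.41, 3.85 and 1.78 CPM in fat co-cultures and at 2.22 and 2.11 CPM in fat mono-cultures. Lung values of Foxf1 were 48.0, 35.7 and 32.7 CPM in co-cultures and 36.8, 29.9 and 23.7 CPM in mono-cultures. Mammary values of Foxf1 were 2.05, 2.97, 1.92, 1.74 and 2.72 CPM in co-cultures and 3.58, 2.37, 2.83, 2.67 and 1.13 CPM in mono-cultures. Every lung library was above every fat and mammary library, while the fat and mammary groups overlapped. In mono-culture, Foxf1 was 13.7-fold lower in fat than in lung (log2 difference -3.78 ± 0.40 SE, adjusted p = 5.84e-06) and 11.9-fold higher in lung than in mammary (3.57 ± 0.28, adjusted p = 1.13e-08). In co-culture, the differences were -3.84 ± 0.34 for fat against lung (adjusted p = 8.24e-07) and 4.07 ± 0.28 for lung against mammary (adjusted p = 7.2e-09). Fat against mammary was not called in either culture, with log2 differences of 0.23 in co-culture (95% interval -0.46 to 0.93) and -0.21 in mono-culture (-0.99 to 0.56). FOXF1 is also made by lung endothelial cells, and the mean log2(CPM + 0.5) of 9 endothelial markers was 1.16 to 3.73 in fat libraries, -0.19 to 0.50 in lung libraries and -0.36 to 1.52 in mammary libraries. The part of endothelial cells in the Foxf1 result was not tested. Foxf1 shares its 3′ end with the annotated gene Gm20388 on the same strand, so how shared reads were counted is uncertain. Gm20388 also overlaps the 3′ end of Fendrr, described next, on the opposite strand. As the use of strand in counting is not given, the same uncertainty applies to Fendrr.

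Fendrr, which lies beside Foxf1 and whose promoter is shown above, had the profile most like that of Foxf1 among 9368 genes compared (Pearson r = 0.966 of log2 CPM over 21 libraries). It had 1 count in each fat co-culture and 0 in both fat mono-cultures. It stood at 29.3, 32.5 and 21.4 CPM in lung co-cultures and at 9.83, 16.8 and 8.74 CPM in lung mono-cultures, and it had at most 3 counts in any mammary library. All lung libraries were above all others, and the lung co-cultures were above the lung mono-cultures, but this last difference was not called (log2 difference 1.23 ± 0.46, adjusted p = 0.31). Fendrr in fat co-cultures was 0.00899 times its level in lung co-cultures (95% counting interval 0.00185 to 0.0265). Lung and mammary differed by 6.96 ± 0.59 on the log2 scale in co-culture (adjusted p = 8.45e-08) and by 5.15 ± 0.56 in mono-culture (adjusted p = 8.31e-07). Cxcl13, a chemokine that attracts B cells, was nearly as close to Foxf1 (r = 0.966), with 22.0 ± 2.86 CPM in lung co-cultures and 26.6 ± 2.52 CPM in lung mono-cultures (SD, n = 3 each) and at most 0.63 CPM elsewhere.

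**Figure D2:**
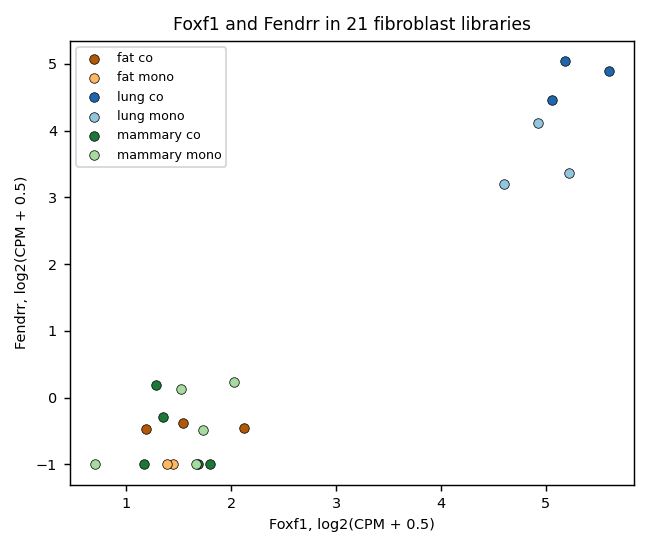
Fendrr against Foxf1 in the 21 fibroblast libraries, both as log2(CPM + 0.5), each point a library coloured by group. The 6 lung libraries lie apart from the others on both axes, and the lung co-cultures lie above the lung mono-cultures in Fendrr.

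Tbx5 marked lung and mammary fibroblasts and was near absent from fat. The fat libraries held 0, 0 and 2 Tbx5 counts in co-cultures and 1 and 1 in mono-cultures, which is 0 to 0.445 CPM. In lung it stood at 7.96, 11.01 and 10.9 CPM in co-cultures and at 6.41, 5.91 and 4.66 CPM in mono-cultures. In mammary libraries it stood at 4.88, 3.21, 6.09, 2.32 and 4.53 CPM in co-cultures and at 4.70, 5.34, 3.70, 4.62 and 3.61 CPM in mono-cultures. Every lung and mammary library was above every fat library, and lung co-cultures were above mammary co-cultures without overlap. The fat level was 0.0156 times the lung level in co-culture (95% counting interval 0.00187 to 0.0573) and 0.0320 times in mono-culture (0.00382 to 0.119). It was 0.0373 times the mammary level in co-culture (0.00444 to 0.139) and 0.0410 times in mono-culture (0.00490 to 0.152). The 4 comparisons had adjusted p of 3.11e-06 and 8.75e-05 against lung and 1.15e-05 and 3.62e-05 against mammary, co-culture first (edgeR). Lung exceeded mammary 2.36-fold in co-culture (1.24 ± 0.33, adjusted p = 0.00659), while in mono-culture the groups overlapped and the difference was 0.36 (95% interval -0.34 to 1.06, adjusted p = 0.411). The interaction between organ and culture was not called (0.88 ± 0.47, adjusted p = 0.834). Foxf2, a forkhead gene related to Foxf1, was most like Tbx5 (r = 0.910), with 1.00 ± 0.53 CPM in fat co-cultures and 10.8 ± 3.55 CPM in lung co-cultures (SD, n = 3 each). Hoxb4, a Hox gene of the trunk, followed at r = 0.892.

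Gata6 was high in lung and fat fibroblasts and low in mammary fibroblasts. It stood at 159, 123 and 185 CPM in fat co-cultures and at 166 and 116 CPM in fat mono-cultures. In lung it stood at 232, 218 and 206 CPM in co-cultures and at 325, 295 and 259 CPM in mono-cultures. In mammary libraries it stood at 22.0, 15.3, 15.1, 11.9 and 15.4 CPM in co-cultures and at 12.5, 11.9, 15.7, 10.7 and 9.93 CPM in mono-cultures. The lung, fat and mammary libraries did not overlap within either culture, in the order lung, fat, mammary. Lung exceeded mammary 24.1-fold in mono-culture (4.59 ± 0.19, adjusted p = 7.59e-12) and 13.6-fold in co-culture (3.76 ± 0.19, adjusted p = 1.86e-10). Fat exceeded mammary 11.6-fold in mono-culture (3.53 ± 0.20, adjusted p = 2.22e-09) and 9.65-fold in co-culture (3.27 ± 0.19, adjusted p = 3.41e-09). Between fat and lung the mono-culture difference was called (-1.06 ± 0.23, adjusted p = 0.0054) but lost its call without the unnumbered fat mono-culture (-0.83, adjusted p = 0.156), and the co-culture difference was not called (-0.49 ± 0.20, adjusted p = 0.139).

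Tcf21 had its highest group means in fat, lower ones in lung and the lowest in mammary fibroblasts. It stood at 399, 163 and 297 CPM in fat co-cultures and at 362 and 231 CPM in fat mono-cultures. In lung it stood at 113, 110.1 and 99.4 CPM in co-cultures and at 203, 98.6 and 72.1 CPM in mono-cultures. In mammary libraries it was at 2.68, 0, 0.962, 0 and 0 CPM in co-culture and at 0.224, 0, 5.00, 0 and 0.677 CPM in mono-culture. No mammary library approached a fat or lung library, and 5 of the 10 held no Tcf21 count. The log2 difference between fat and mammary was 8.23 ± 0.80 in co-culture (adjusted p = 6.97e-07) and 7.93 ± 0.80 in mono-culture (adjusted p = 8.7e-07). The log2 difference between lung and mammary was 6.82 ± 0.79 in co-culture (adjusted p = 2.63e-06) and 6.68 ± 0.76 in mono-culture (adjusted p = 1.35e-06). Fat libraries were above lung libraries without overlap in both cultures, yet the differences were not called in the model of all groups (1.41 ± 0.66, adjusted p = 0.205, in co-culture, and 1.25 ± 0.71, adjusted p = 0.334, in mono-culture). A fit of only the fat and lung co-cultures called the first of them (1.40 ± 0.28, adjusted p = 0.0121). Tcf21 overlaps the antisense gene Gm10824 at its 3′ end, and the use of strand in counting is not given in the sources used here, so reads of the pair cannot be told apart.

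Of the 8 mesothelial markers, 7 had every fat and lung library above every mammary library, as Gata6 and Tcf21 had. The other, Krt19, did not, with 24.4 ± 5.49 CPM in fat co-cultures and 32.2 ± 12.4 CPM in lung co-cultures, against 73.1 ± 41.4 CPM in mammary co-cultures (SD, n = 3, 3 and 5). The share of all genes with this split was not counted. In mono-culture, 14.1% of all genes were called higher in fat than in mammary and 21.2% higher in lung than in mammary. Msln, mesothelin, averaged 365 ± 172 CPM in fat co-cultures, 449 ± 169 in fat mono-cultures, 292 ± 152 in lung co-cultures and 438 ± 213 in lung mono-cultures, against 1.26 ± 1.64 in mammary co-cultures and 1.34 ± 2.07 in mammary mono-cultures (SD, n = 3, 2, 3, 3, 5 and 5). Within mammary libraries, the co-culture and the mono-culture with the highest Tcf21 (2.68 and 5.00 CPM) also had the highest mesothelial mean of their culture, at 2.65 and 2.47 on the log2 scale. Msln was the second gene most like Tcf21 (r = 0.982), after Gdf6, a bone morphogenetic protein family ligand (r = 0.988). Pard6b, a cell polarity protein, and Il22ra1, a receptor chain for interleukin 22, were most like Gata6 (r = 0.991 and 0.990). All r values are over 21 libraries that fall into 3 organs, so any gene with the same order of organs scores high. Of the 9 listed markers 2 (Krt8 and Krt19) also stand in the epithelial list and 2 (Wt1 and Bnc1) in the list of patterning factors below. The part of mesothelial cells in the Gata6 and Tcf21 results was not tested.

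**Figure D3:**
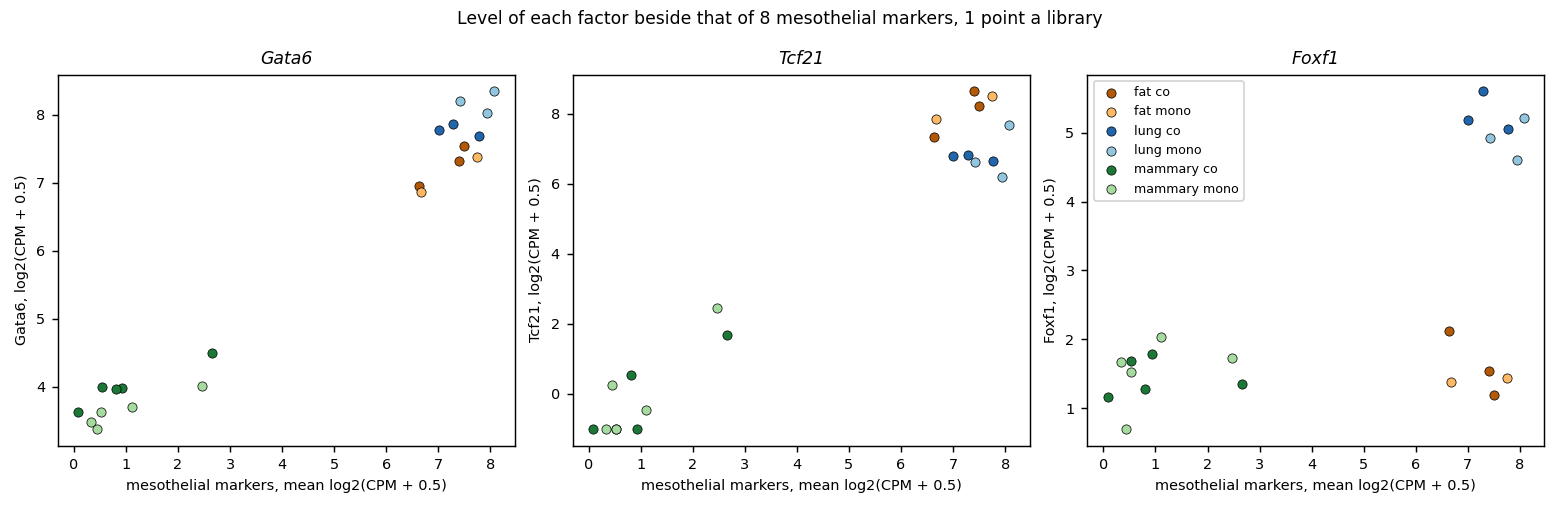
Levels of Gata6, Tcf21 and Foxf1 on the vertical axis against the mean of 8 mesothelial markers on the horizontal axis, both as log2(CPM + 0.5), 1 point a library. Fat and lung libraries lie at marker means of 6.63 to 8.07 and mammary libraries at 0.09 to 2.65, and Foxf1 stands at 1.78 to 3.85 CPM in the fat libraries and 23.7 to 48.0 CPM in the lung libraries.

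Tbx15 was highest in mammary fibroblasts, lower in lung and lowest in fat. It stood at 1.87, 2.94 and 1.11 CPM in fat co-cultures and at 0.342 and 0.960 CPM in fat mono-cultures. In lung it stood at 7.96, 5.63 and 5.07 CPM in co-cultures and at 11.1, 7.20 and 7.58 CPM in mono-cultures. In mammary libraries it stood at 103, 99.9, 112, 57.5 and 88.5 CPM in co-cultures and at 89.1, 88.6, 102, 73.2 and 82.0 CPM in mono-cultures. The 3 organs did not overlap in either culture, and all 6 comparisons between organs were called. Fat against mammary differed by -5.52 ± 0.33 in co-culture (46.0-fold lower in fat, adjusted p = 3.41e-09) and by -7.03 ± 0.45 in mono-culture (131-fold lower in fat, adjusted p = 4.63e-09). The fat mono-cultures held 2 and 5 Tbx15 counts, and this mono-culture difference ran from -8.17 to -6.43 over the alternative settings. Lung against mammary differed by -3.90 ± 0.29 in co-culture (adjusted p = 1.09e-08) and by -3.33 ± 0.27 in mono-culture (adjusted p = 2.19e-08). Fat against lung differed by -1.63 ± 0.35 in co-culture (adjusted p = 0.00565) and by -3.70 ± 0.46 in mono-culture (adjusted p = 3.74e-05). Sox9, a factor of cartilage and of several progenitor cells, was most like Tbx15 (r = 0.962), and C1qtnf6, a secreted C1q-related protein, came second (r = 0.943).

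Prrx1 had its lowest group means in lung fibroblasts. It stood at 117, 161 and 79.9 CPM in fat co-cultures and at 80.2 and 137 CPM in fat mono-cultures. Lung values of Prrx1 were 54.4, 80.5 and 40.8 CPM in co-cultures and 15.2, 36.9 and 20.2 CPM in mono-cultures. Mammary values of Prrx1 were 220.3, 36.1, 206, 36.3 and 176 CPM in co-cultures and 175, 100.1, 181, 76.6 and 137 CPM in mono-cultures, each in the order of replicates 1 to 5. Mammary libraries 2 and 4 were the lowest in both cultures. Lung mono-cultures were below all mammary mono-cultures, and the log2 difference of lung against mammary was -2.47 ± 0.59 (5.53-fold lower in lung, adjusted p = 0.00265). Fat exceeded lung in mono-culture by 2.17 ± 0.66 (adjusted p = 0.0459), a call that was lost without either fat mono-culture (adjusted p = 0.073 without replicate 1 and 0.33 without the unnumbered one) and without lung mono-culture 1 or 3 (0.152 and 0.141). In co-culture, no organ difference of Prrx1 was called, and lung against mammary (-1.21 ± 0.55, adjusted p = 0.101) became called without mammary co-culture 2 (-1.45, adjusted p = 0.0353) or 4 (-1.46, adjusted p = 0.032). S1pr1, a sphingosine-1-phosphate receptor, and Vstm4 were most like Prrx1 (r = 0.916 and 0.913).

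Twist1 was present in all groups, with the highest group mean 1.66 times the lowest. It stood at 128, 120.5 and 119 CPM in fat co-cultures and at 115 and 100.0 CPM in fat mono-cultures. In lung it stood at 177, 130.1 and 141 CPM in co-cultures and at 129, 117 and 130.4 CPM in mono-cultures. In mammary libraries it stood at 215, 143, 209, 101 and 204 CPM in co-cultures and at 164, 157, 195, 169 and 206 CPM in mono-cultures. Mammary mono-cultures lay above fat and lung mono-cultures without overlap, while the mammary co-cultures overlapped both other organs, libraries 2 and 4 again being the lowest. In mono-culture, Twist1 was lower in fat than in mammary by 0.73 ± 0.23 on the log2 scale (0.603-fold, adjusted p = 0.025). It was lower in lung than in mammary by 0.51 ± 0.19 (0.704-fold, adjusted p = 0.0445). The first call was lost without either fat mono-culture (adjusted p = 0.124 and 0.226) or mammary mono-culture 5 (0.0518). It was also lost with the replicate number as a block (-0.79 ± 0.27, adjusted p = 0.0745). That block joined equal numbers across organs and gave the unnumbered fat mono-culture a level of its own. The second was lost without any 1 lung mono-culture (0.0864 to 0.136) and without mammary mono-culture 3, 4 or 5 (0.0533 to 0.0933). Fat against mammary in co-culture was just outside the threshold (-0.51 ± 0.19, adjusted p = 0.061) and became called without mammary co-culture 2 (0.0455) or 4 (0.00228) and with the replicate block (-0.51 ± 0.17, adjusted p = 0.0417). Tnfsf11, the ligand RANKL, and Cxcl5, a neutrophil-attracting chemokine, were most like Twist1 (r = 0.917 and 0.905).

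**Figure D4:**
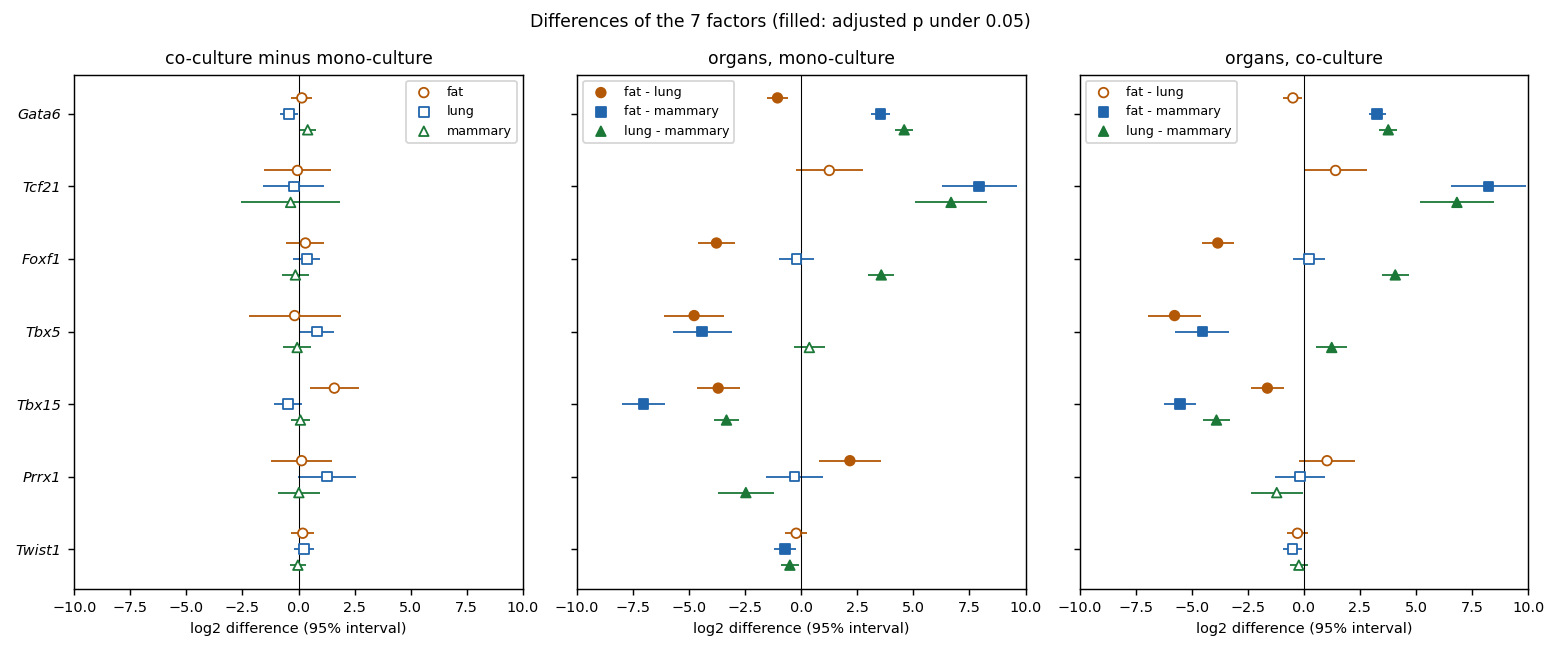
Log2 differences of the 7 factors on the horizontal axis with 95% intervals from the edgeR model, co-culture minus mono-culture (left) and between organs in mono-culture (middle) and co-culture (right). Filled symbols have an adjusted p under 0.05: none in the left panel, 16 in the middle panel and 12 in the right panel.

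Co-culture with macrophages changed none of the 7 factors past the threshold in any organ. Of all genes tested, 0.201% were called in fat, 1.31% in lung and 3.65% in mammary fibroblasts (25, 163 and 453 genes). With the replicate number as a block, 856 genes and 0 of the 7 factors were called in mammary fibroblasts. This block paired a co-culture with the mono-culture of equal number. The median log2 difference over the 7 was 0.15 in fat, 0.25 in lung and -0.03 in mammary, beside 0.02, -0.03 and 0 over all genes tested. The markers of macrophages, 15 genes, had means of log2(CPM + 0.5) of 4.07 to 6.43 in fat co-cultures, against 3.34 to 3.55 in fat mono-cultures. They had means of 5.84 to 6.25 in lung co-cultures, against 2.4 to 3.92 in lung mono-cultures. In mammary fibroblasts they had means of 3.85 to 5.69 in co-cultures. Mammary mono-culture 1 stood at 4.02, within that range, and mono-cultures 2 to 5 at 0.49 to 0.96. The part of macrophage RNA in these values was not tested. The interaction tests, which ask whether the co-culture difference itself varied between organs, called 0 of 7 factors in each pair of organs. They called 0 genes of 12421 for fat against lung (813 at an unadjusted p under 0.05, and 48 by DESeq2), 3 for fat against mammary (0.0242%) and 12 for lung against mammary (0.0966%).

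Co-culture and mono-culture libraries did not overlap for 2 of 7 factors in fat, where 31.8% of all genes tested did not overlap, for 3 of 7 in lung (20.2% of all genes) and for 0 of 7 in mammary fibroblasts (4.75%). None of these 5 differences was called. Tbx15 in fat averaged 1.98 ± 0.92 CPM in co-cultures and 0.651 ± 0.44 CPM in mono-cultures (SD, n = 3 and 2), a log2 difference of 1.59 ± 0.53 (SE; adjusted p = 0.268). The mean of the endothelial markers also differed between these groups, at 1.16 to 2.41 in fat co-cultures and 3.24 to 3.73 in fat mono-cultures. Among them Vwf went the other way, with 1.11 to 2.14 CPM in co-cultures and 0.17 to 0.58 CPM in mono-cultures. Kdr and Emcn overlapped between the groups. The part of endothelial cells in the Tbx15 difference was not tested. In lung, Tbx5 averaged 9.96 ± 1.73 CPM in co-cultures and 5.66 ± 0.90 CPM in mono-cultures (SD, n = 3 each), a difference of 0.82 ± 0.36 (adjusted p = 0.465). Prrx1 in lung averaged 58.5 ± 20.2 CPM in co-cultures and 24.1 ± 11.4 CPM in mono-cultures (SD, n = 3 each), a difference of 1.27 ± 0.61 (adjusted p = 0.534). Gata6 in lung averaged 219 ± 13.1 CPM in co-cultures and 293 ± 32.8 CPM in mono-cultures (SD, n = 3 each), a difference of -0.42 ± 0.20 (adjusted p = 0.518). Twist1 in fat averaged 122 ± 4.68 CPM in co-cultures and 107 ± 10.5 CPM in mono-cultures (SD, n = 3 and 2), a difference of 0.19 ± 0.24 (adjusted p = 0.907). In lung the 95% intervals reached from 0.05 to 1.58 for Tbx5, from -0.01 to 2.55 for Prrx1 and from -0.84 to -0.0047 for Gata6 before adjustment over genes. Intervals above 0 were also found for Tbx15 in fat (0.49 to 2.70) and Gata6 in mammary fibroblasts (0.04 to 0.77). The mammary Gata6 difference, of opposite sign to that in lung, was 0.41 ± 0.17 (adjusted p = 0.238). The Gata6 interaction of lung against mammary was -0.83 ± 0.26 (adjusted p = 0.449). For Foxf1, the interval of the co-culture difference was -0.54 to 1.15 in fat, -0.23 to 0.96 in lung and -0.75 to 0.47 in mammary fibroblasts. For Tcf21, it was -1.56 to 1.46 in fat, -1.58 to 1.15 in lung and -2.57 to 1.86 in mammary fibroblasts, a range that holds differences of more than 2-fold in either direction. For Twist1, it was -0.32 to 0.69 in fat, -0.20 to 0.70 in lung and -0.38 to 0.31 in mammary fibroblasts.

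Other patterning transcription factors outside the Hox, Meis and Pbx families divided the organs as well. Of 90 listed, 74 were in the table and 63 were tested. None of the 63 was called for co-culture, where 0.201% of all genes were called in fat, 1.31% in lung and 3.65% in mammary fibroblasts. Fat exceeded lung in 15 and was below it in 5 in mono-culture (31.7% called, background 9.28%), and in 16 and 7 in co-culture (36.5%, background 9.41%). Fat exceeded mammary in 15 and was below it in 22 in mono-culture (58.7%, background 23.3%), and in 10 and 17 in co-culture (42.9%, background 25.4%). Lung exceeded mammary in 12 and was below it in 29 in mono-culture (65.1%, background 40.3%), and in 13 and 28 in co-culture (65.1%, background 32.2%). The median log2 difference of lung against mammary was -1.01 in mono-culture and -0.85 in co-culture, beside 0.03 over all genes in each. By family, 14 of 22 homeobox, 4 of 7 bHLH and 0 of 6 forkhead factors were called lower in lung than in mammary in either culture, where 19.1% of all genes were lower in mono-culture and 15.3% in co-culture. The same held for 6 of 17 GATA and zinc-finger and 1 of 5 T-box factors in mono-culture, and for 5 and 2 of them in co-culture. Called higher in lung were 7 of 17 GATA and zinc-finger, 2 of 5 T-box and 1 of 22 homeobox factors in either culture. For forkhead factors it was 1 of 6 in mono-culture and 2 in co-culture, and for bHLH factors 0 of 7 and 1. Of all genes, 21.2% were higher in mono-culture and 16.9% in co-culture.

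Several of these factors were high in the same organ as 1 or more of the 7. Tbx2 and Tbx4, T-box genes of lung mesenchyme, were highest in lung. Tbx2 averaged 2.35 ± 0.71 CPM in fat, 84.7 ± 16.4 CPM in lung and 1.86 ± 1.23 CPM in mammary co-cultures (SD, n = 3, 3 and 5). Tbx4 averaged 2.06 ± 0.44 CPM in fat, 42.6 ± 6.70 CPM in lung and 2.32 ± 0.78 CPM in mammary co-cultures. Osr1, a zinc-finger factor of lateral mesoderm, averaged 71.4 ± 45.5 CPM in fat, 1609 ± 320.5 CPM in lung and 254 ± 25.1 CPM in mammary co-cultures. The log2 difference of fat against lung was -5.15 ± 0.44 for Tbx2, -4.36 ± 0.37 for Tbx4 and -4.49 ± 0.41 for Osr1 in co-culture (edgeR adjusted p = 6.96e-07, 6.41e-07 and 1.09e-06).

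Gata4, a relative of Gata6 active in the heart and mesothelium, averaged 14.3 ± 3.23 CPM in fat co-cultures, 23.6 ± 10.6 CPM in fat mono-cultures, 17.5 ± 0.96 CPM in lung co-cultures and 35.7 ± 2.63 CPM in lung mono-cultures (SD). It had 1 count over the 5 mammary co-cultures and 1 over the 5 mammary mono-cultures. The ratio of lung to mammary mono-cultures was 808 with a 95% counting interval of 144 to 31955, and the mesothelial markers other than Krt19 were also lowest in mammary; their part was not tested. Irx1 and Pitx1, homeobox factors, were lowest in lung, and Irx1 averaged 183 ± 41.7 CPM in fat, 3.47 ± 2.38 CPM in lung and 184 ± 43.4 CPM in mammary co-cultures. Shox2, Sox9, Snai1 and Prrx2 were highest in mammary fibroblasts, as Tbx15 was. Shox2, a limb homeobox factor, had group means of 0.33 to 1.68 CPM in fat and lung, against 46.4 ± 15.4 CPM in mammary co-cultures and 53.3 ± 13.3 CPM in mammary mono-cultures (SD, n = 5 each). Prrx2, the paralogue of Prrx1, averaged 23.2 ± 5.39 CPM in fat, 72.2 ± 10.8 CPM in lung and 283 ± 90.9 CPM in mammary co-cultures. Its fat against mammary difference was -3.61 ± 0.36 (adjusted p = 6.97e-07), whereas that of Prrx1 was -0.18 ± 0.52 (adjusted p = 0.831). The difference between the paralogues was not tested.

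**Figure D5:**
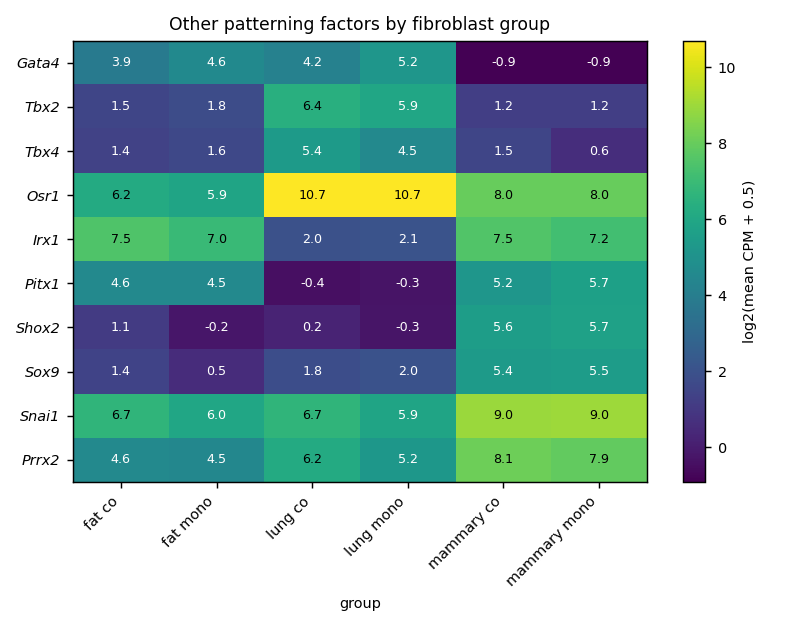
Mean level of 10 other patterning factors in the 6 fibroblast groups, as log2(mean CPM + 0.5) written in each cell and shown by colour. Tbx2, Tbx4 and Osr1 are highest in lung, Irx1 and Pitx1 lowest in lung, Gata4 near 0 CPM in mammary, and Shox2, Sox9, Snai1 and Prrx2 highest in mammary.

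Genes of the hedgehog pathway, of mesenchymal signals and of retinoic acid, which act with these factors in development, were also described. Gli3, a transcription factor of the hedgehog pathway, was higher in lung than in mammary mono-cultures (0.94 ± 0.23, adjusted p = 0.00346), a call lost without lung mono-culture 3 (0.65, adjusted p = 0.05).

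Of 12 genes for mesenchymal signals, 3 were higher and 0 lower in fat than in lung in mono-culture (25% called, background 9.28%), and 1 higher and 1 lower in co-culture (16.7%, background 9.41%). The 3 were Bmp2, a BMP ligand, and the matrix proteins Tnc and Postn. None of them was called without lung mono-culture 3 (Tnc, adjusted p = 0.0864, and Postn, 0.0578) or without the unnumbered fat mono-culture. In fat against mammary, 6 were higher and 3 lower in mono-culture (75%, background 23.3%), and 4 higher and 1 lower in co-culture (41.7%, background 25.4%). The 3 lower ones became 0 without either fat mono-culture, and the 1 lower in co-culture became 0 without fat co-culture 1 or 2, 2 without mammary co-culture 2 and 3 without mammary co-culture 4. In lung against mammary, 5 were higher and 3 lower in either culture (66.7%, backgrounds 40.3% in mono-culture and 32.2% in co-culture), with 3 higher in co-culture without lung co-culture 1 or 3. Bmp4 and Rspo1, secreted ligands of the BMP and WNT pathways, were higher in fat and lung than in mammary. Bmp4 averaged 87.1 ± 48.3 CPM in fat co-cultures and 191 ± 63.1 CPM in lung co-cultures, against 0.430 ± 0.53 CPM in mammary co-cultures (SD, n = 3, 3 and 5). Rspo1 averaged 181 ± 111 CPM in fat co-cultures and 535 ± 126 CPM in lung co-cultures, against 1.16 ± 2.10 CPM in mammary co-cultures. The mesothelial markers other than Krt19 were also lowest in mammary, and their part was not tested.

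Tnc, tenascin C, was the single gene of these pathway lists called for co-culture. It averaged 187 ± 19.1 CPM in lung co-cultures and 58.5 ± 18.6 CPM in lung mono-cultures (SD, n = 3 each), a difference of 1.68 ± 0.37 (adjusted p = 0.03). The call was lost without any 1 of the 6 lung libraries (adjusted p = 0.0627 to 0.18).

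Of 12 retinoic acid pathway genes tested, 2 were higher and 2 lower in fat than in lung in either culture (33.3%, backgrounds 9.28% in mono-culture and 9.41% in co-culture). These counts moved with single libraries. In mono-culture, 1 higher and 0 lower were left without lung mono-culture 3, where the call of Crabp1, a retinoic acid-binding protein, was lost (-3.84, adjusted p = 0.0582), and also without fat mono-culture 1. None was left without the unnumbered fat mono-culture, 1 higher and 1 lower without lung mono-culture 2, and 2 higher and 1 lower without lung mono-culture 1. In co-culture, leaving out any 1 of the 6 libraries left 0 or 1 higher and 0 or 1 lower. In fat against mammary, 6 were higher and 3 lower in mono-culture (75%, background 23.3%), with 3 higher without the unnumbered fat mono-culture and 1 lower without fat mono-culture 1. In co-culture 5 were higher and 3 lower (66.7%, background 25.4%). In lung against mammary, 5 were higher and 4 lower in mono-culture (75%, background 40.3%), and 4 higher and 4 lower in co-culture (66.7%, background 32.2%). Aldh1a1, a retinaldehyde dehydrogenase, averaged 311 ± 94.5 CPM in lung co-cultures and 10.1 ± 7.72 CPM in mammary co-cultures (SD, n = 3 and 5), a difference of 4.90 ± 0.59 (adjusted p = 3.83e-06).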

How the data were processed

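Per the labels' protocols, mRNA of sorted cells was captured on oligo-dT beads and sequenced from 3′ ends. Reads were demultiplexed with bcl2fastq, aligned with STAR 2.4.2a to mm10 and counted with HTSeq, per the submitters' processing notes. Not given in the sources used here are the gene annotation, strand setting and handling of molecular identifiers. The deposited tables hold raw counts per gene, 1 table per cell type, and each of their columns was mapped to a sample or group (0 unmapped). The column header numbers one fat mono-culture differently from its title, so that library is called unnumbered. Counts from 3′ ends do not scale with transcript length.

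The fibroblast counts were fitted in 1 model of 6 groups with edgeR 4.0.16 in R 4.3.3 (TMM scaling, filterByExpr with a minimum count of 10, robust quasi-likelihood F-test), and p-values were adjusted by Benjamini-Hochberg over 12421 genes. A gene was called at an adjusted p under 0.05. Standard errors are the size of the log2 difference divided by the square root of F, and intervals are 95%. A ratio on 1 to 3 counts has an exact binomial counting interval. Intervals and floors on counts cover counting error only. The common dispersion corresponded to a coefficient of variation of 29.1%. DESeq2 1.42.0, other scaling, no filter, a replicate block and leaving out each library were alternatives. For comparisons between organs, the block joined libraries of equal number across organs, a sharing that the labels do not state. The unnumbered fat mono-culture then had a level of its own. For co-culture and interactions, the block paired libraries of equal number within an organ. The main script was tested on simulated data. No pair of libraries within a group looked like a duplicate (30 pairs, chi-square per degree of freedom 8.10 to 72.2).

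Deviations from the group mean were correlated between co-cultures and mono-cultures of an organ. Same-numbered mammary libraries had r of 0.29 to 0.56 (5 pairs), and differently numbered ones -0.56 to 0.50. In lung, r was 0.04 to 0.34 for same numbers (3 pairs) and -0.34 to 0.01 for different numbers. The 1 same-numbered fat pair had r = 0.01, and the other fat pairs -0.16 to 0.16. The labels do not say what a number shares, so pairing was left to the alternatives.

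The 7 factors and all lists were chosen with earlier results of these data known. Listed genes named in the text were, per comparison between organs, the called genes with the smallest adjusted p, up to 4 patterning factors and up to 2 of each other list, and up to 2 of each list per co-culture comparison. For each of the 7 the 2 genes with the highest r of log2 CPM (prior count 2) among genes averaging 5 CPM or more were named. Gm20388, Gm10824, Bmp2, Krt19, the endothelial comparison and the shares of genes without overlap were added after the values were seen. Results of some listed genes are not reported here.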

Additional observations from a re-analysis of the deposited data

Results flagged for a closer look

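Tcf21 in mammary mono-cultures had a single high library at 5.00 CPM, while the other 4 lay between 0 and 0.677 CPM. Its distance from the others exceeded Dixon's critical value (0.865 of the group's range). Of 14 groups tested this way 1 was flagged, and chance flags about 1 in 20.

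Signals of 5 of the 7 factors appeared in the sorted macrophage libraries of the co-cultures (n = 4 per group), a table not used in the comparisons above. Tbx5 and Foxf1 are not among the genes of that table. Gata6 averaged 0.446 CPM in macrophages co-cultured with fat fibroblasts, 0.956 with lung and 0.342 with mammary fibroblasts, against 0 in all 4 day 0 macrophage libraries. Tbx15 averaged 1.36 CPM in macrophages co-cultured with mammary fibroblasts, against 0 to 0.193 CPM at day 0. Tcf21 averaged 0.716 CPM with fat and 1.28 CPM with lung fibroblasts, against 0 at day 0. Prrx1 averaged 4.44 CPM with fat, 2.10 with lung and 2.89 with mammary fibroblasts, against 0 to 0.627 at day 0. Twist1 averaged 1.44 CPM with fat, 0.876 with lung and 1.43 with mammary fibroblasts, against 0 to 0.193 at day 0. Group means of Gata6 rest on 7 to 19 counts, and the day 0 libraries were not kept in culture with fibroblasts. The source of these counts was not tested.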

How the results depend on the processing

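Among the 7 factors, 28 called differences were recomputed in 338 settings, of which 318 kept the call, 20 lost it and 0 turned direction. The other 56 differences became called in 8 of 814 settings. The calls lost in another model, beside those named for single libraries, were Gata6 fat against lung in mono-culture with the replicate block (adjusted p = 0.0587), Prrx1 in the same comparison without the filter (0.0508) or with the block (0.345), Twist1 fat against mammary in mono-culture with the block (0.0745), and Twist1 lung against mammary in mono-culture with size factors (0.0598) or no filter (0.058). Calls gained were Prrx1 fat against lung in co-culture in a fit of those groups alone (0.0495) and Twist1 fat against mammary in co-culture by DESeq2 (0.048) or with the block (0.0417). The replicate block called none of the 7 for co-culture.

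Counts of all genes called moved more. For co-culture they were 142 by DESeq2, 0 in a fit of the groups compared and 3 with the block in fat, 312, 378 and 367 in lung, and 751, 146 and 856 in mammary fibroblasts. Between organs, the block gave 453 for fat against lung and 1516 for fat against mammary in mono-culture, and the fit of the groups compared gave 1760 for fat against mammary and 2515 for lung against mammary in co-culture. The interactions had 48 by DESeq2, 3 in the groups alone and 1 with the block for fat against lung, 27, 0 and 0 for fat against mammary, and 51 by DESeq2 and 63 with the block for lung against mammary. Leaving out 1 library gave 0 to 7 (fat), 60 to 121 (lung) and 265 to 484 (mammary) for co-culture. It gave 427 to 907, 1480 to 3078 and 4094 to 5077 between organs in mono-culture, 582 to 900, 2325 to 3373 and 2923 to 4428 in co-culture (fat against lung, fat against mammary, lung against mammary), and 0 to 9, 0 to 8 and 6 to 15 for the interactions in that order. For fat against lung the fit of the groups compared gave more genes than the main model. It called 1464 against 1153 in mono-culture and 1732 against 1169 in co-culture. The cause of these shifts was not tested. Depth limits Tbx5 in fat (0 to 2 counts a library) and Tbx15 in fat mono-cultures (2 and 5 counts). It also limits Tcf21 in 8 of the 10 mammary libraries (0 to 3 counts), while the other 2 held 17 and 23 counts.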
